A study of Homo sapiens with 8 samples.

Results

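The GIMAP genes (GTPases of immunity-associated proteins) form a single cluster on the long arm of human chromosome 7. The 7 members described here, GIMAP8, GIMAP7, GIMAP4, GIMAP6, GIMAP2, GIMAP1 and GIMAP5 in their order along the chromosome, were selected by symbol from the 63677 genes of the deposited count tables. The group itself was chosen from measured values, namely its change with ACBI-1 in MOLT-4 cells, so the MOLT-4 values of the members are given as a description and carry no p-value. All 7 passed the filter on low counts in both cell lines.

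GIMAP proteins bind GTP through a domain of the AIG1 type and most sit on intracellular membranes such as those of lysosomes, the Golgi apparatus or lipid droplets. They are made mainly in lymphocytes, where their levels change during T-cell development. Loss of some single members, though not of each, leads to too few mature lymphocytes in rodents or people. Family members pair with each other through the GTP-binding domain, and some of them hydrolyse GTP only poorly on their own.

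Transcripts were counted in MOLT-4 and DND-41, both established human cell lines of T-ALL (acute lymphoblastic leukaemia of T cells), 24 h after addition of 100 nM ACBI-1 or of DMSO, the solvent. The compound ACBI-1 belongs to the PROTACs and joins the bromodomains of the chromatin remodelling subunits SMARCA2, SMARCA4 and PBRM1 to the ubiquitin ligase VHL so that these proteins are degraded. The 4 groups were MOLT-4 with ACBI-1, MOLT-4 with DMSO, DND-41 with ACBI-1 and DND-41 with DMSO, each with 2 libraries of total RNA numbered 1 and 2. Both lines were grown in RPMI-1640 medium with serum, and the labels name no genetic change. The labels do not say whether the 2 libraries of a group came from separate cultures, so p-values and standard errors measure only the spread between libraries, which may be technical. Each line stands for 1 leukaemia and not for normal T cells.

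Total counts lay between 21308737 and 22067644 per library. The MOLT-4 libraries grouped by treatment, with a chi-square per degree of freedom (1 for sampling noise alone) of 2.85 between the ACBI-1 libraries, 1.56 between the DMSO libraries and 55.7 to 57 across the groups. The DND-41 libraries went against their labels. There the same measure was 5.53 and 6 between libraries of the same number and different treatment, and 76.3 between those labelled ACBI-1 and 71.9 between those labelled DMSO. The authors' deposited DND-41 table set number 2 over number 1 in 100% of 27069 genes to within 0.001 on the log2 scale, while the authors' deposited MOLT-4 table set ACBI-1 over DMSO in 100% of 27777 genes. The column names or labels of DND-41 may thus be exchanged, which the files and labels used here do not settle, so that treatment and number cannot be told apart in that line. Values of DND-41 are therefore given for each library under its label, with both ways of splitting them, and neither way is given as an effect of ACBI-1. In the file headers the word "redo" follows each MOLT-4 library name and no DND-41 name, so the MOLT-4 libraries may be repeats, and no source says of what. Levels are given as CPM, counts scaled to library size. Transcripts of SMARCA4 averaged 737 ± 26.3 CPM with ACBI-1 and 617 ± 14.7 CPM with DMSO in MOLT-4 (SD, n = 2 each; log2 fold change 0.26, edgeR adjusted p = 3.09e-08). PBRM1 averaged 248 CPM with ACBI-1 and 230 CPM with DMSO (log2 fold change 0.11, edgeR adjusted p = 0.00736), and SMARCA2 averaged 26.8 CPM with ACBI-1 and 28.1 CPM with DMSO (log2 fold change -0.06, edgeR adjusted p = 0.439). In the authors' deposited MOLT-4 table SMARCA4 passed 0.05 and PBRM1 did not (log2 fold change 0.10, the authors' DESeq2 adjusted p = 0.0788). The compound acts on the proteins, so these transcripts do not check the treatment.

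Both lines carried T-lineage markers, though not each of the 9 in DND-41. There PTCRA had at most 0.0427 CPM, CD2 5.33 to 7.08 CPM and CD5 3.34 to 7.64 CPM. Summed over 9 T-lineage markers, the level in MOLT-4 was at least 1694 CPM with ACBI-1 and 1990 CPM with DMSO. It was 2948 to 3016 CPM in DND-41 libraries labelled ACBI-1 and 3102 to 3196 CPM in those labelled DMSO. TAL1, a leukaemia factor active in MOLT-4, had 56.6 and 57.3 CPM with ACBI-1 and 115 and 118 CPM with DMSO there and at most 0.328 CPM in DND-41. TLX3, its counterpart in DND-41, had 120 to 247 CPM in DND-41 and 0 counts in MOLT-4. Myeloid markers summed to at most 0.462 CPM and endothelial markers to at most 0.149 CPM in any library. Bulk counts cannot tell fewer cells of a type from less RNA per cell.

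Stretches of RefSeq sequence just before the annotated transcript starts show what the members share in sequence apart from their values. Positions are from build GRCh38.p14, while the authors' counts were made on hg19, so no count is tied to these positions. In the first set, the stretches that hold a run of 14 bases found before 3 of the 7 genes are shown with that run in capitals and 30 bases on either side, 5′ to 3′ on the strand of the gene.
GIMAP7, chr7:150514790-150514863, plus strand: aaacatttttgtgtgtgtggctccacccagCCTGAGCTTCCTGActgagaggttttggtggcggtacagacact
GIMAP2, chr7:150685619-150685692, plus strand: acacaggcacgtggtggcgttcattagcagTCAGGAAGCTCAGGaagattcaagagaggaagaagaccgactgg
GIMAP1, chr7:150716523-150716596, plus strand: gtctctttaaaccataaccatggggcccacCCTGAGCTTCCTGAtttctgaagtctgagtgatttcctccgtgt
The run read CCTGAGCTTCCTGA before GIMAP7 and GIMAP1 and TCAGGAAGCTCAGG, its reverse complement, before GIMAP2. Within the 250 bases before a start it occurred in 4 of 35116 RefSeq promoters (0.0114%), 1 of which is the entry of the read-through gene GIMAP1-GIMAP5 over the same stretch as GIMAP1. The run was searched for because these sequences share it, so its rarity is a description. The first 30 bases after the RefSeq start of GIMAP7 were not found in a GENCODE 29 transcript of that gene, so its start is less sure than the other 6.

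In the second set, the 70 bases before the start of the other 4 genes are shown with the core AGGAAG, or CTTCCT on the other strand, in capitals. This core is contained in sites bound by ETS factors and was chosen after the sequences had been seen.
GIMAP8, chr7:150450560-150450629, plus strand: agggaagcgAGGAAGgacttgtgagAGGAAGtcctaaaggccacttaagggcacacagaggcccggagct
GIMAP4, chr7:150567320-150567389, plus strand: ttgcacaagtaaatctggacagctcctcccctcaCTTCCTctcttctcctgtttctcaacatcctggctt
GIMAP6, chr7:150632386-150632455, minus strand: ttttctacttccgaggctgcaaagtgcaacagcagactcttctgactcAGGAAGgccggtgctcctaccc
GIMAP5, chr7:150737348-150737417, plus strand: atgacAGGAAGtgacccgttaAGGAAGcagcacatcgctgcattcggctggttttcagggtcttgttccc
The shared run of the first set contains the same core, so all 7 members held it within 70 bases of the start, against 9.72% of 35116 promoters. The 70 bases just take in the sites of GIMAP5, from -65, and GIMAP8, from -61. With core and window both fitted to these sequences, that share is a description only. Over the whole 250 bases the core was again present in 7 of 7 members and in 28.7% of all promoters. The E-box CANNTG occurred in 4 of 7 members (61.8% of all promoters) and GATAA or TTATC in GIMAP6 alone (20.4%). Neither TGTGGT, a core of RUNX sites (11% of all promoters), nor GTGGGAA, a core of RBPJ sites (5.43%), occurred before any of the 7 genes on either strand. A match describes letters and is not evidence of binding.

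In MOLT-4 all 7 GIMAP transcripts were lower with ACBI-1 than with DMSO. Summed over the family, the level was 108 and 101 CPM in the ACBI-1 libraries and 408 and 396 CPM in the DMSO libraries. The median log2 fold change of the 7 members was -2.16, against 0.01 for all 14618 genes tested. At an edgeR adjusted p below 0.05, 30.2% of genes tested were lower and 58.4% passed in either direction, and that all 7 members were among the lower ones was fixed by their selection. For 5 of the 7 the decrease was at least 4-fold, which 1.59% of genes tested reached. In all 7 both ACBI-1 libraries lay below both DMSO libraries, as in 38.8% of genes tested. The members were selected on this contrast, so these shares are printed as background only. With a spread shared by both lines 544 genes passed, GIMAP4 and GIMAP2 not among them.

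Several T-lineage markers were also low in the MOLT-4 ACBI-1 libraries. The summed level of the 9 T-lineage markers was 1694 to 1813 CPM with ACBI-1 and 1990 to 2009 CPM with DMSO, and its members differed among themselves. CD7, a surface protein of T cells, had 25.5 and 21.1 CPM with ACBI-1 and 149 and 141 CPM with DMSO. CD2, an adhesion protein, had 24.9 and 24.4 CPM with ACBI-1 and 92.9 and 94.5 CPM with DMSO. The groups were as clearly apart for CD28, a costimulatory receptor, at 5.9 and 4.89 CPM with ACBI-1 and 27.1 and 24.3 CPM with DMSO, and for PTCRA, the pre-T-cell receptor chain, at 5.11 and 5.77 CPM with ACBI-1 and 19.7 and 18.4 CPM with DMSO. CD3G, a chain of the T-cell receptor complex, was higher, with 467 and 443 CPM with ACBI-1 and 288 and 299 CPM with DMSO. The summed level of the 5 B-lineage markers was 0.785 to 0.837 CPM with ACBI-1 and 5.30 to 5.41 CPM with DMSO. The part of these in the GIMAP levels was not tested.

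**Figure D1:**
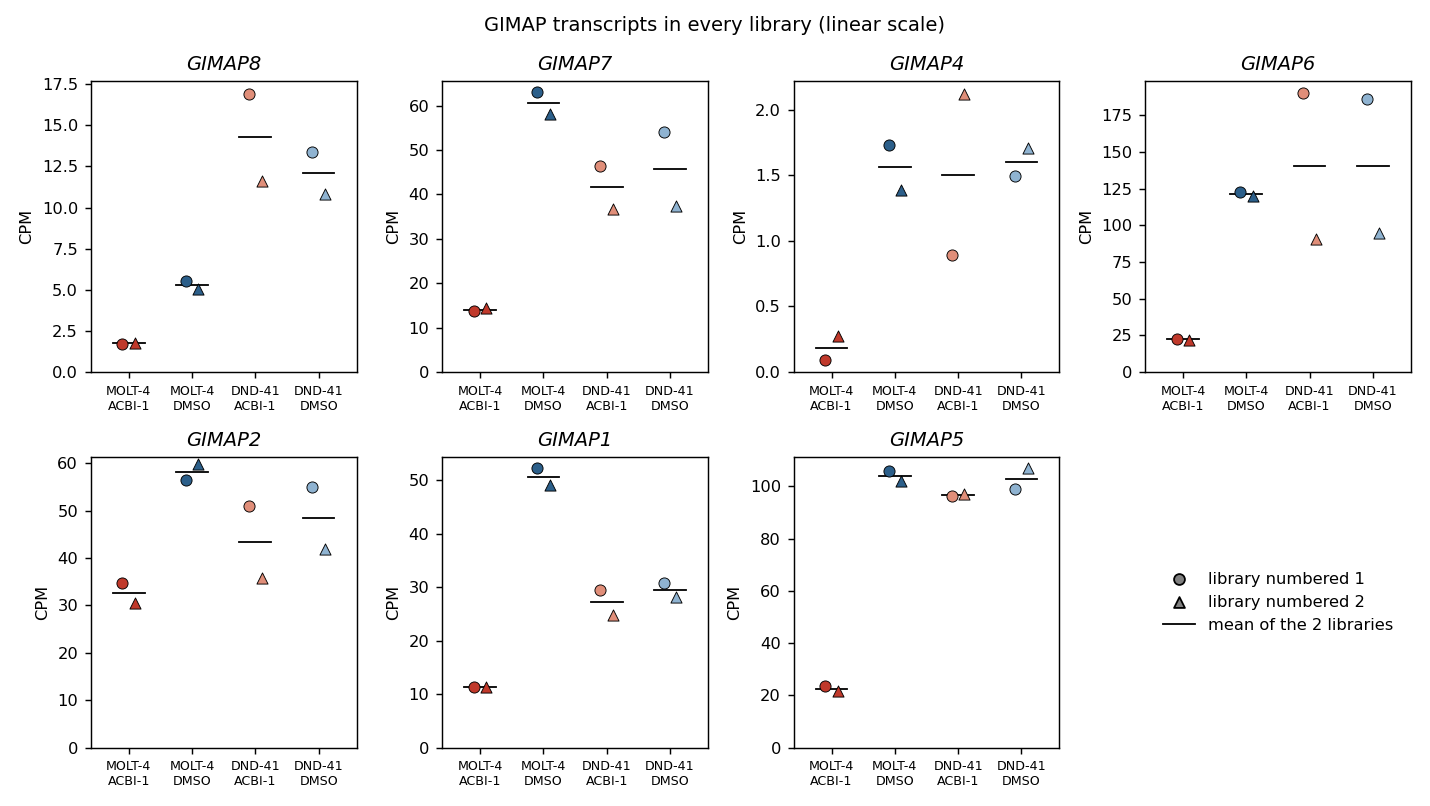
Levels (CPM, linear axes from 0) of the 7 GIMAP transcripts in each of the 8 libraries. Circles are libraries numbered 1, triangles those numbered 2, and lines the mean of the 2 libraries of a group. In every panel both MOLT-4 ACBI-1 libraries lie below the other 6 libraries, while in DND-41 circles and triangles differ more than the labelled treatments for GIMAP6.

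GIMAP5 (ENSG00000196329), a protein of the lysosomal membrane whose loss in rats and mice causes a lack of T cells, had 23.7 and 21.6 CPM with ACBI-1 and 106 and 102 CPM with DMSO in MOLT-4. The ACBI-1 libraries held about the same low level and the DMSO libraries about the same high level, with no overlap. The log2 fold change was -2.20 (SE 0.058), or 21.8% of the DMSO level. In DND-41 it had 96.4 and 97.1 CPM with the ACBI-1 label, against 98.9 and 107 CPM with the DMSO label. The 4 DND-41 libraries sat close together, with both ACBI-1 libraries just below both DMSO libraries (log2 fold change -0.08, SE 0.12).

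GIMAP1 (ENSG00000213203), a Golgi protein needed by mature B and T cells in mice, had 11.3 and 11.4 CPM with ACBI-1 and 52.4 and 49.1 CPM with DMSO in MOLT-4. The groups were far apart and each was tight, giving 22.4% of the DMSO level (log2 fold change -2.16, SE 0.074). DND-41 had 29.6 and 24.8 CPM in ACBI-1 libraries and 30.7 and 28.2 CPM in DMSO libraries, so these groups overlapped (log2 fold change -0.11, SE 0.17). Of the 100-base windows of GIMAP1 transcripts, 7.4% occur base for base in another gene, and 29.3% of those of GIMAP5, mostly in the read-through gene GIMAP1-GIMAP5, which was not analysed here. Only 19 such windows are common to GIMAP1 and GIMAP5 themselves, and the windows of the other 5 members were unique.

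GIMAP2 (ENSG00000106560), a protein anchored in the membrane of lipid droplets, had 34.7 and 30.5 CPM with ACBI-1 and 56.5 and 59.9 CPM with DMSO in MOLT-4. The groups did not overlap, and its decrease was the smallest of the family (log2 fold change -0.83, SE 0.061, 56.2% of the DMSO level). In DND-41 the libraries labelled ACBI-1 had 51.0 and 35.8 CPM and those labelled DMSO 55.0 and 41.9 CPM. These groups overlapped, and the lower value in each belonged to the library numbered 2 (log2 fold change as labelled -0.16, SE 0.25).

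GIMAP7 (ENSG00000179144), which hydrolyses GTP itself and stimulates hydrolysis by GIMAP2 in the test tube, had 13.7 and 14.4 CPM with ACBI-1 and 63.1 and 58.1 CPM with DMSO in MOLT-4. The groups did not overlap, and the ACBI-1 level was 23.2% of the DMSO level (log2 fold change -2.11, SE 0.070). In DND-41 the libraries labelled ACBI-1 had 46.5 and 36.8 CPM and those labelled DMSO 54.1 and 37.5 CPM. They overlapped, again with number 2 below number 1 under either label (log2 fold change -0.13, SE 0.25).

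GIMAP6 (ENSG00000133561), which binds the autophagy protein GABARAPL2, had 22.9 and 21.6 CPM with ACBI-1 and 123 and 120 CPM with DMSO in MOLT-4. No value came near the other group, and the level with ACBI-1 was 18.4% of that with DMSO (log2 fold change -2.45, SE 0.055). In DND-41 the libraries labelled ACBI-1 had 190 and 91.0 CPM and those labelled DMSO 186 and 95.1 CPM. Here the libraries of one number matched across treatments while number 1 was far above number 2, so the labelled log2 fold change was -0.0023 with an SE of 0.50.

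GIMAP4 (ENSG00000133574), a GTPase whose loss in mice slows the death of T cells, was the scarcest member, with 2 and 6 counts with ACBI-1 and 35 and 28 counts with DMSO in MOLT-4. The groups did not overlap, but the estimate rests on 8 counts against 63, a ratio per total count of 12.9% (exact conditional 95% interval 5.34% to 27%, counting error only). The fitted log2 fold change was -3.03 (SE 0.45). It was -3.98 without the second ACBI-1 library and -2.47 without the first, so 1 library moves it by more than 1.5-fold. In DND-41 the libraries labelled ACBI-1 had 19 and 50 counts and those labelled DMSO 32 and 40 counts, and the groups overlapped (log2 fold change -0.07, SE 0.52).

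GIMAP8 (ENSG00000171115), the largest member with several GTP-binding domains, had 37 and 38 counts (1.72 and 1.75 CPM) with ACBI-1 and 112 and 102 counts (5.54 and 5.06 CPM) with DMSO in MOLT-4. The groups were apart, with 32.9% of the DMSO level left (log2 fold change -1.60, SE 0.19). In DND-41 the libraries labelled ACBI-1 had 16.9 and 11.6 CPM and those labelled DMSO 13.4 and 10.8 CPM. The groups overlapped, and GIMAP8 was the member with a positive labelled estimate (log2 fold change 0.24, SE 0.27). The difference between the lines was not tested for any member.

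**Figure D2:**
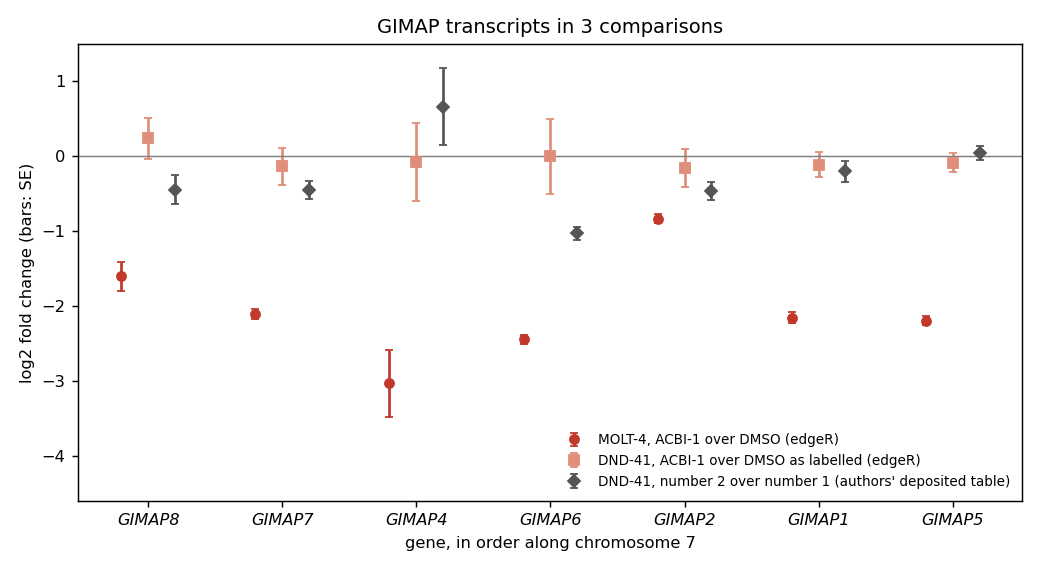
Log2 fold changes of the 7 GIMAP transcripts, with bars of 1 SE, in 3 comparisons: ACBI-1 over DMSO in MOLT-4, ACBI-1 over DMSO as labelled in DND-41, and number 2 over number 1 in DND-41 from the authors' deposited table. The MOLT-4 values run from -3.03 for GIMAP4 to -0.83 for GIMAP2, and GIMAP6 at -1.03 is the lowest in the deposited DND-41 table.

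In DND-41, with libraries grouped as labelled, 0 of the 7 members passed the edgeR threshold, and 0 of 14602 genes did (0%), with 37 genes at an unadjusted p below 0.05 by edgeR, 7 by DESeq2 and 0 past the adjusted threshold by DESeq2. With the replicate number as a block, 1349 of the 14602 genes passed and 0 of the 7 members did, and the SE of GIMAP6 was 0.045. The 7 members are too few to set their 0 apart from the share of all genes. Within a number, the ratio of the library labelled ACBI-1 to that labelled DMSO was below 1 in both pairs for GIMAP7 (0.859 and 0.982), GIMAP2 (0.928 and 0.854), GIMAP1 (0.962 and 0.878) and GIMAP5 (0.975 and 0.906). It was above 1 in both for GIMAP8 (1.26 and 1.07), and differed in direction for GIMAP6 (1.02 and 0.956) and GIMAP4 (0.595 and 1.24). The median log2 fold change of the members was -0.08, against -0.0024 for all genes. The labelled groups overlapped in 6 of 7 members and did not in GIMAP5. Of all genes tested, 16.1% had labelled groups that did not overlap. Summed over the family, the level in numbers 1 and 2 was 431 and 299 CPM under the ACBI-1 label and 440 and 322 CPM under the DMSO label.

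Split by number, the same libraries differed. In the authors' deposited DND-41 table, which sets number 2 over number 1, 36.8% of 14883 genes with an adjusted p passed 0.05 in either direction, and 3 of the 7 members did, all lower in number 2. GIMAP6 stood at -1.03 on the deposited log2 scale (SE 0.084, the authors' deposited adjusted p = 2.78e-32). GIMAP2 stood at -0.46 (SE 0.12, adjusted p = 0.000706 in the authors' deposited table) and GIMAP7 at -0.45 (SE 0.12, adjusted p = 0.000918 in the authors' deposited table). Of the other 4 in the authors' deposited table, GIMAP8 was at -0.45 (adjusted p = 0.0517) and GIMAP1 at -0.20 (adjusted p = 0.264). GIMAP5 was at 0.05 (adjusted p = 0.74) and GIMAP4 at 0.66 (adjusted p = 0.335) in the authors' deposited table. From the counts, the CPM ratio of number 2 to number 1 for GIMAP6 was 0.479 between the libraries labelled ACBI-1 and 0.511 between those labelled DMSO. For GIMAP5 these ratios were 1.01 and 1.08, so members of 1 locus differed among themselves in how they followed the library number.

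Single marker genes moved with the number in DND-41 as well. The summed level of 5 B-lineage markers was 692 CPM in number 1 and 178 CPM in number 2 of the libraries labelled ACBI-1, and 738 CPM in number 1 and 209 CPM in number 2 of those labelled DMSO. Nearly all of it was CD79A, a B-cell receptor chain, while MS4A1 was at 0 in all 4 libraries and PAX5 had at most 0.0468 CPM. Of 4 natural killer markers, NKG7 had 24.5 CPM in number 1 and 2.58 CPM in number 2 with the ACBI-1 label, and 29.6 CPM in number 1 and 2.69 CPM in number 2 with the DMSO label, while KLRD1 and NCAM1 were at 0 and KLRF1 had at most 0.213 CPM. T-lineage markers stepped both ways. CD7 had 1251 CPM in number 1 and 214 CPM in number 2 with the ACBI-1 label, and 1227 CPM in number 1 and 252 CPM in number 2 with the DMSO label. CD3G had 433 CPM in number 1 and 1049 CPM in number 2 with the ACBI-1 label, and 423 CPM in number 1 and 1117 CPM in number 2 with the DMSO label. The part of these differences in the GIMAP levels was not tested, and what the number stands for is not given in the labels.

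Levels were compared between members only per length, as CPM per kilobase of the exons of each gene in GENCODE 29. With ACBI-1 in MOLT-4 the order was GIMAP2 at 15.6 ± 1.42, GIMAP7 at 11.2 ± 0.363, GIMAP6 at 5.68 ± 0.229 and GIMAP5 at 3.75 ± 0.252 CPM per kilobase, then GIMAP1, GIMAP8 and GIMAP4 (SD, n = 2 each). With DMSO in MOLT-4 it was GIMAP7 at 48.2 ± 2.79, GIMAP6 at 31.0 ± 0.457, GIMAP2 at 27.8 ± 1.15 and GIMAP5 at 17.2 ± 0.458 CPM per kilobase. GIMAP2 was thus the highest member with ACBI-1, and below GIMAP7 and GIMAP6 with DMSO. Its share of the summed level per kilobase was 41.4% and 38.3% in the ACBI-1 libraries and 19.4% and 21.3% in the DMSO libraries.

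In DND-41 the order per kilobase followed the number. GIMAP6 was first in the libraries numbered 1 and GIMAP7 in those numbered 2, under either treatment label. Mean levels of GIMAP6 were 35.9 ± 17.9 CPM per kilobase in the libraries labelled ACBI-1 and 35.9 ± 16.4 in those labelled DMSO. GIMAP7 had 33.1 ± 5.46 CPM per kilobase with the ACBI-1 label and 36.5 ± 9.37 with the DMSO label. Each SD takes in both numbers, so it does not measure how the 2 genes differ within a library. GIMAP8 and GIMAP4 were the 2 lowest members in each of the 4 groups.

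Between lines, in CPM from 1 scaling of all 8 libraries whose counts were deposited in separate tables, both MOLT-4 ACBI-1 libraries were below the other 6 libraries for 7 of 7 members. Of the 14618 genes tested in MOLT-4, 12.1% had this order, and the members were selected on its MOLT-4 side. The gap was narrow for GIMAP2, with at most 34.7 CPM in MOLT-4 with ACBI-1 and at least 35.8 CPM elsewhere, and wide for GIMAP6, with at most 22.9 CPM and at least 91.0 CPM elsewhere. MOLT-4 cells with DMSO stood at 1.79 times the mean of the 4 DND-41 libraries for GIMAP1, 1.39 times for GIMAP7 and 1.27 times for GIMAP2. GIMAP5 at 1.04 times and GIMAP4 at 1.01 times were at about the DND-41 level. GIMAP6 was at 0.863 times, inside the DND-41 range of 91.0 to 190 CPM, and GIMAP8 was at 0.402 times, below that line's range of 10.8 to 16.9 CPM. The lines differ in more than treatment, and no test was made between them.

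Of 18 tested genes on either side of the cluster, 7 rose, 2 fell and 9 did not pass in MOLT-4. The share that passed was 50%, against 58.4% of all genes, with a median log2 fold change of 0.13 against 0.01 over all genes. The 4 with the smallest adjusted p lie on the side of GIMAP8. ATP6V0E2, a subunit of the vacuolar proton pump, averaged 43.1 ± 5.32 CPM with ACBI-1 and 13.2 ± 0.152 CPM with DMSO (SD, n = 2 each; log2 fold change 1.72, SE 0.081, edgeR adjusted p = 3.29e-22). ZNF862, a zinc-finger gene, rose as well (log2 fold change 0.997, SE 0.11, edgeR adjusted p = 4.8e-11). REPIN1, a zinc-finger gene, fell by 0.72 on the log2 scale (SE 0.037, edgeR adjusted p = 7.86e-21) and LRRC61 fell by 0.49 (SE 0.051, edgeR adjusted p = 2.72e-11). The nearest tested neighbour before GIMAP8, ZNF775, had 102 ± 2.63 CPM with ACBI-1 and 106 ± 2.09 CPM with DMSO (log2 fold change -0.05, edgeR adjusted p = 0.375).

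Beyond GIMAP5, the pseudogene GIMAP3P had 1 and 1 counts with ACBI-1 and 4 and 13 counts with DMSO in MOLT-4, and 4 and 6 counts with the ACBI-1 label and 5 and 6 with the DMSO label in DND-41. These counts were too few to be tested. The next genes, TMEM176B, TMEM176A and AOC1, had 1, 0 and 0 counts over all 8 libraries. KCNH2, a potassium channel and the first testable gene on that side, did not pass (0.45 on the log2 scale, SE 0.23, edgeR adjusted p = 0.0923). Of the risers, ATG9B was not called when any 1 library was left out, and SLC4A2 and TMUB1 when the first ACBI-1, first DMSO or second DMSO library was. The DESeq2 test called 5 neighbours in all, and scaling by total counts gave 12 higher and 2 lower. In the authors' deposited DND-41 table, 4 of 18 neighbours were higher and 4 lower in number 2 (36.8% of genes passed either way).

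**Figure D3:**
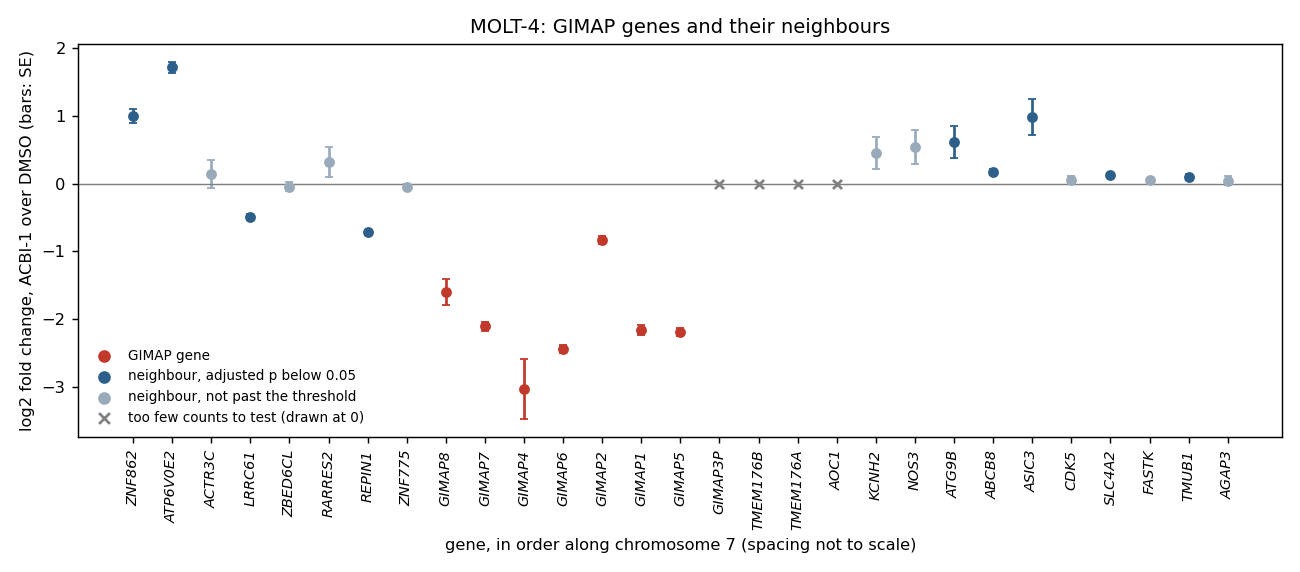
Log2 fold changes with ACBI-1 over DMSO in MOLT-4, with bars of 1 SE, for the 7 GIMAP genes and their neighbours in their order along chromosome 7, with spacing not to scale. The GIMAP genes lie between -3.03 and -0.83, the tested neighbours between -0.72 (REPIN1) and 1.72 (ATP6V0E2), and crosses mark genes with too few counts.

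Lists of related genes were counted in the same MOLT-4 fit. Of 8 tested interferon-inducible large GTPases, a GTPase group outside the GIMAP family, 0 rose, 5 fell and 3 did not pass (median log2 fold change -0.40). The share that passed, 62.5%, was near the 58.4% of all genes, and scaling by total counts gave 1 higher and 3 lower. MX2, an antiviral GTPase, fell by 0.62 (edgeR adjusted p = 2.98e-16) to 83.5 CPM with ACBI-1, against 129 CPM with DMSO. GBP4, a guanylate-binding protein, fell by 0.48 (edgeR adjusted p = 2.16e-08), GVINP1, a pseudogene, by 1.18 (edgeR adjusted p = 6.6e-08) and GBP3 by 0.33 (edgeR adjusted p = 0.00228), all on the log2 scale. The DESeq2 test called 3 of the 5, without GBP3 and IRGM, and IRGM was also not called without either ACBI-1 library or without the second DMSO library. In the authors' deposited DND-41 table, 1 of 9 was higher and 3 were lower in number 2 (36.8% of genes passed either way).

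Among 10 tested genes for reported binding partners of GIMAP proteins and their kin, 2 rose, 3 fell and 5 did not pass, with a median of -0.01. The share that passed was 50%, and scaling by total counts turned the balance to 5 higher and 1 lower, with a median of 0.11. GABARAP, a kin of the GIMAP6 partner, rose by 0.51 on the log2 scale (edgeR adjusted p = 0.000234), and the partner GABARAPL2 itself rose by 0.26 (edgeR adjusted p = 0.000188), with 48.5 ± 1.37 CPM with ACBI-1 and 40.6 ± 0.281 CPM with DMSO. BAK1, a promoter of apoptosis, fell by 0.46 (edgeR adjusted p = 3.15e-09), and BCL2L1, an apoptosis inhibitor, fell by 0.17 (edgeR adjusted p = 0.000268), a call lost with scaling by total counts. GSK3B, reported to be restrained by GIMAP5 in mice, had 122 ± 6.55 CPM with ACBI-1 and 122 ± 7.15 CPM with DMSO (edgeR adjusted p = 0.875). BCL2 was no longer called without the first ACBI-1 library or the first DMSO library. By the authors' deposited DND-41 table, 2 of 10 were higher and 2 lower in number 2 (36.8% of genes passed either way).

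Genes of naive and resting T cells, the normal cells in which GIMAP genes are high, moved both ways: of 13 tested, 3 rose, 8 fell and 2 did not pass (median -0.31; 84.6% passed, against 58.4% of all genes). LTB, a lymphotoxin subunit, fell by 4.93 on the log2 scale to 0.51 ± 0.199 CPM with ACBI-1, against 15.8 ± 1.52 CPM with DMSO (edgeR adjusted p = 7.24e-25). TCF7, a T-cell transcription factor, fell by 0.31 (edgeR adjusted p = 5.18e-10), while S1PR1, the receptor for exit from lymphoid organs, rose by 1.08 to 39.6 CPM with ACBI-1, against 18.8 CPM with DMSO (edgeR adjusted p = 2.32e-17). Among those that rose, FOXO1 was no longer called when any 1 of the 4 libraries was left out. By the authors' deposited DND-41 table, 8 of 13 were higher and 3 lower in number 2 (36.8% of genes passed either way).

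All 11 tested T-ALL transcription factors passed in MOLT-4, against 58.4% of all genes, with 4 higher and 7 lower (median -0.21). NOTCH1, a receptor often mutated in T-ALL, fell by 2.22 on the log2 scale to 179 ± 9.16 CPM with ACBI-1, against 835 ± 1.28 CPM with DMSO (edgeR adjusted p = 3.21e-38). GATA3 fell by 1.20 (edgeR adjusted p = 3.54e-22) and TAL1 fell by 1.03 (edgeR adjusted p = 1e-22), while ERG, a factor of the ETS family, rose by 1.33 (edgeR adjusted p = 4.42e-29). ETS1, another factor of that family, fell by 0.62 (edgeR adjusted p = 7.07e-19). By the authors' deposited DND-41 table, 2 of 10 were higher and 5 lower in number 2 (36.8% of genes passed either way). These lists were chosen with results of these libraries known and are given as counts.

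**Figure D4:**
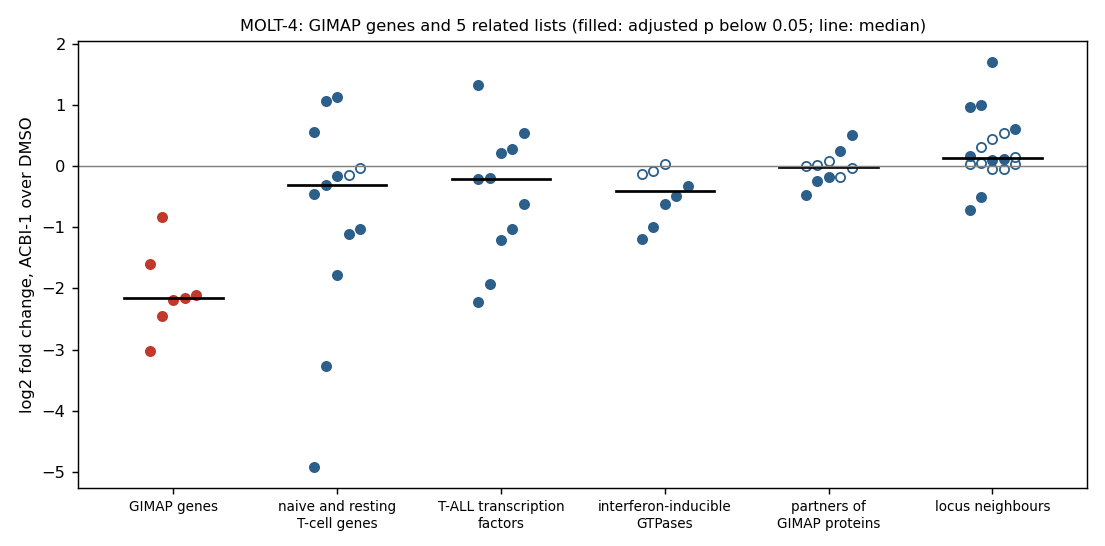
Log2 fold changes with ACBI-1 over DMSO in MOLT-4 for the 7 GIMAP genes (red) and the tested genes of 5 related lists (blue). Points are genes, filled where the adjusted p was below 0.05, and black lines are medians, which run from -2.16 for the GIMAP genes to 0.13 for the locus neighbours.

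The members followed each other across the 8 libraries to different degrees. Pearson's r of log2(CPM + 1) between pairs of members ran from 0.491 for GIMAP8 and GIMAP2 to 0.97 for GIMAP7 and GIMAP1. These correlations have 8 points that share line, treatment and number and describe the libraries only. The 6 protein-coding genes most like the mean GIMAP pattern, among 10361 ranked, were HES1 (r = 0.995), LCP2 (0.994), ARHGAP9 (0.992), ITM2B (0.989), DERL1 (0.988) and PSD4 (0.987), and 141 genes had an r above 0.9.

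HES1, a target of NOTCH signalling, had 0.883 and 0.831 CPM with ACBI-1 and 57.0 and 55.4 CPM with DMSO in MOLT-4. In DND-41 it had 73.1 and 36.1 CPM in libraries 1 and 2 labelled ACBI-1 and 76.9 and 38.1 CPM in those labelled DMSO. Like GIMAP6, it was thus low in both MOLT-4 ACBI-1 libraries and lower in number 2 than in number 1 of DND-41. LCP2, an adaptor of T-cell receptor signalling, had 29.1 and 31.7 CPM with ACBI-1 and 128 and 122 CPM with DMSO in MOLT-4. In DND-41 it had 141 and 96.8 CPM with the ACBI-1 label and 137 and 101 CPM with the DMSO label. It too was low in the MOLT-4 ACBI-1 libraries and stepped with the number in DND-41. DERL1 had the same pattern at a much smaller size, with 51.8 and 52.3 CPM with ACBI-1 and 66.6 and 66.4 CPM with DMSO in MOLT-4.

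**Figure D5:**
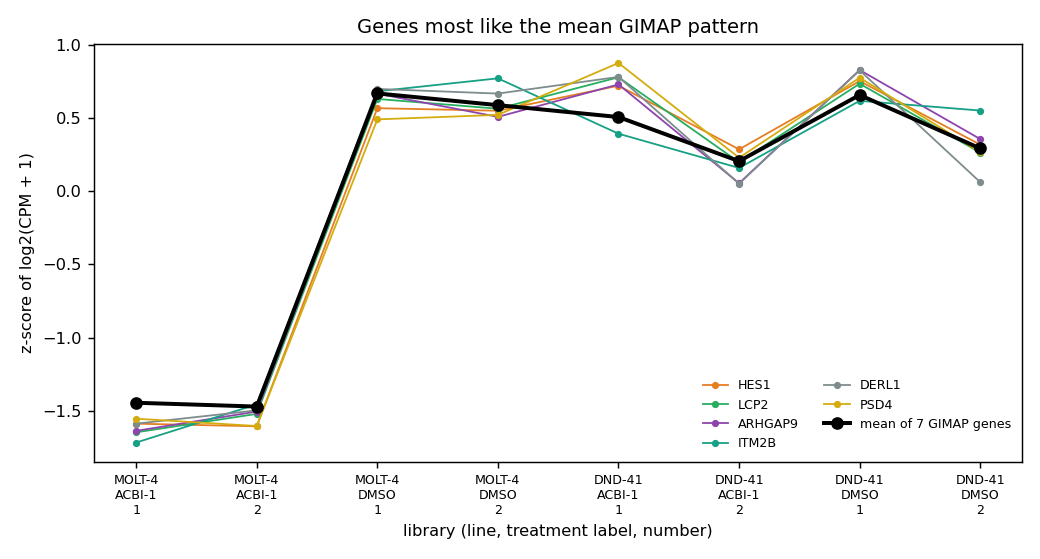
Z-scores over the 8 libraries of log2(CPM + 1) for the mean of the 7 GIMAP genes (black) and for the 6 genes most like it (colours). All lines are lowest in the 2 MOLT-4 ACBI-1 libraries, and in DND-41 the libraries numbered 1 lie above those numbered 2 under either label.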

How the data were processed

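Strand-specific libraries of total RNA were read as 100-base pairs, 8 in all, per the labels' protocols. The submitters' processing notes name the build hg19 and the tools STAR 2.5.2a, featureCounts and DESeq2 1.12.4. How strand and multi-mapping reads were handled, and with which annotation release, is not given in the sources used here. For each line the authors deposited a table of raw counts by Ensembl gene. The authors also deposited DESeq2 tables with log2 fold changes and standard errors, a mean normalised signal per gene, a Wald score, and p-values with adjusted p-values.

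The 4 libraries of a line entered 1 fit by edgeR 4.0.16 (R 4.3.3), with TMM scaling, filterByExpr and a 2-sided quasi-likelihood test. Adjustment of p-values followed Benjamini and Hochberg over all genes tested, with a threshold of 0.05. CPM use 1 TMM scaling of all 8 libraries. DESeq2 1.42.0, other scalings, filters, the replicate block, a spread shared by both lines and leaving out each library were tried. The members and lists were chosen with earlier results of these data known. Of each list, up to 4 genes with the smallest adjusted p in MOLT-4 are named, except 1 that is not reported here, and GSK3B and ETS1 were named after their values were seen, as were KCNH2 and ZNF775 for their position and ATG9B, SLC4A2, TMUB1, IRGM, BCL2 and FOXO1 for calls that 1 library decides. Like genes are the 6 with the highest r to the mean z-score of the members, with at least 5 CPM in 1 library. Exon lengths and gene order came from GENCODE 29, whose build (GRCh38) is not that of the counts, and promoters from RefSeq. The authors' coordinates were not used. Intervals cover counting error only.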

Additional observations from a re-analysis of the deposited data

How the results depend on the processing

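All 7 members stayed lower with ACBI-1 in MOLT-4 under all 11 alternatives, from -0.71 for GIMAP2 (scaling by total counts) to -3.98 for GIMAP4 (without ACBI-1 replicate 2). With a spread shared by both lines, which takes in the DND-41 libraries, 5 of 7 members passed, GIMAP4 and GIMAP2 did not, and 544 genes passed in place of 8533. That fit groups the DND-41 libraries as labelled, so their split by number enters its spread. The members were selected on their MOLT-4 change, so how many of them passed is a description only. In that fit 2 GTPases of the GBP, MX, GVIN and IRG list and 2 locus neighbours passed, in place of 5 and 9. For naive or resting T-cell genes, T-ALL factors and partner genes it was 2, 2 and 0, in place of 11, 11 and 5. With the DESeq2 Wald test 3 GTPases of the GBP, MX, GVIN and IRG list and 5 neighbours passed. Scaling by total counts raised log2 fold changes by a median of 0.12, let 14 neighbours pass, and gave 5804 higher and 3031 lower genes, or 34.3% lower, against 51.7% lower with TMM. Among named calls, IRGM was lost in 8 of 10 alternatives and FOXO1 in 7 of 10. Of 11 alternatives, TMUB1 was lost in 7, SLC4A2 and ATG9B in 6, BCL2 in 5 and GBP3 in 3. NOTCH1, GATA3, TAL1, ETS1, S1PR1 and TCF7 were among those lost only with the shared spread. MX2, GVINP1, ATP6V0E2, ZNF862, LTB and ERG were lost in none. Same-numbered libraries deviated together in DND-41 (correlation 0.916) and not in MOLT-4 (0.00253). The labels do not say that a number marks a shared culture or day, and treatment and number cannot be told apart in DND-41. Pairing the DND-41 libraries by number (replicate block) gave 1349 of 14602 genes in place of 0, with 3063 at an unadjusted p below 0.05. Of the 7 members 0 passed, too few genes to set apart from that share. In the same line as labelled, leaving out 1 library turned the sign of GIMAP8 (-0.04 to 0.47), GIMAP7 (-0.38 to 0.16), GIMAP4 (-0.85 to 0.42), GIMAP6 (-0.61 to 0.57) and GIMAP2 (-0.42 to 0.07). The causes were not tested. Depth limits GIMAP4 most, with 8 counts in MOLT-4 with ACBI-1.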
